A study of Mus musculus with 6 samples.

Results

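Genes that mark or direct the oligodendrocyte precursor lineage, 9 in all, were followed in the whole brain of newborn mice a few hours after ethanol. They are the transcription factor genes Olig1, Olig2, Nkx2-2, Sox10, Sox8 and Myrf, the growth factor receptor gene Pdgfra, the surface proteoglycan gene Cspg4 and the receptor gene Gpr17. Genes were taken by symbol from array probesets that the platform annotation pairs with 1 gene, and where a gene has several, the probeset is chosen by its mean level over all 6 arrays. Each of the 9 genes had 1 such probeset, so that mean decided nothing here, and all 9 were among the 14953 tested genes of 19938 named ones. Their ethanol results were known when the set was put together, so counts over the set describe it and are read beside the same counts for all tested genes.

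All mice were C57BL/6J males, an inbred laboratory strain, on postnatal day 7. Ethanol pups received 2 subcutaneous doses of 2.5 g/kg, as a 20% solution in saline, with 2 h between them, and saline pups received saline alone. Brains were taken 4 h after the first injection. Each array held whole-brain RNA pooled from 3 pups of different litters, and there were 2 ethanol arrays (numbered 2 and 4 in the labels) and 4 saline arrays (1, 3, 5 and 6), from 18 mice. Every ethanol pup had a littermate among the saline pups, but the labels do not say on which array.

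Oligodendrocytes are the cells that wrap axons of the brain in myelin. They arise from dividing precursors that carry the receptor for platelet-derived growth factor (PDGFRα) and the proteoglycan NG2, the products of Pdgfra and Cspg4. Olig1 and Olig2 are related basic helix-loop-helix factors. Olig2 is needed to specify the lineage, and Olig1 acts mainly in maturation and myelin repair. Sox10 and Sox8 belong to the SoxE family and act beside them, Nkx2-2 is a homeodomain factor of the lineage that helps start differentiation, Gpr17 marks precursors that have committed to differentiate, and Myrf switches on myelin genes. In the mouse forebrain the first postnatal week is a time of precursor spread, before most myelin is laid down.

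Levels below are log2 intensities of single probesets, and a change is the mean of the ethanol arrays minus the mean of the saline arrays on that scale. A level is not compared between genes, since probesets bind with different strength. Saline array 3 stood apart, at 13.5 on the first principal component (40.9% of the variance), where the other 5 arrays lay between -7.49 and 2.95. The ethanol arrays were lowest on it, at -6.61 and -7.49, and the lowest saline array was at -2.13. Saline array 3 also had the lowest median over tested genes, 8.29 where the others had 8.34 to 8.38. All 9 lineage genes lay above 6.21, the 95th percentile of 1194 olfactory and vomeronasal receptor genes used as a guide to background. In a whole-brain pool, fewer cells of a type and less RNA per cell cannot be told apart, and precision is limited throughout by how few arrays there are.

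Of the 9 genes, none passed the limma test at an adjusted p of 0.05, which 0.0803% of all tested genes passed (12 genes). Olig2 came nearest, and its level on both ethanol arrays was below that on all 4 saline arrays. At an unadjusted p under 0.05 there were 2 lineage genes, Olig2 and Olig1, both lower with ethanol, or 22.2% of the set beside 12.3% of tested genes. Both ethanol arrays lay outside the saline arrays for 2 of the 9, Olig2 (below) and Gpr17 (above). That is 22.2%, beside 22.6% of tested genes, so on this count the set did not stand out. The median change of the set was -0.0023, with 5 genes below 0 and 4 above. The median of all tested genes was -0.02, and 58.6% of them were below 0.

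Olig2 was at 9.76, 9.67, 9.63 and 9.62 on saline arrays 1, 3, 5 and 6, and at 9.41 and 9.29 on ethanol arrays 2 and 4. The groups did not overlap, and the gap between the highest ethanol and the lowest saline array was wider than the whole saline range of 0.14. The saline mean was 9.67 ± 0.06 (SD, n = 4) and the ethanol mean 9.35 ± 0.08 (SD, n = 2). The log2 change was -0.32 ± 0.07 (SE), or 79.9% of the saline level, with a 95% interval of 72.4% to 88.2% that is not adjusted for the number of genes. Its unadjusted p was 0.000332, which ranked 59th among all tested genes, and the limma adjusted p was 0.0827. The result lies close to the threshold: adjusted p was 0.0484 when the fit left out the dimmest 50% of genes and 0.0448 with a variance prior that follows intensity and allows outlying genes, and between 0.0525 and 0.468 under the other 12 alternatives. The change itself stayed between -0.38 and -0.26 in all 14, and the value nearest 0 came without ethanol array 4 (adjusted p = 0.468 in limma).

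Olig1, which lies next to Olig2 on the chromosome with no protein-coding gene between them in RefSeq, was at 10.51, 10.27, 10.38 and 10.45 on saline arrays 1, 3, 5 and 6. On ethanol arrays 2 and 4 it was at 10.19 and 10.29. Here the groups overlapped, because saline array 3 lay just below ethanol array 4. That gave a log2 change of -0.16 ± 0.07 (SE), or 89.2% of the saline level, with an interval of 79.9% to 99.7% (limma adjusted p = 0.392). Without saline array 3 the change was -0.21, with a limma adjusted p of 0.200. The genes just outside the pair in RefSeq order, chosen after the values were seen, were Ifnar2 beyond Olig1, at -0.05 in log2 change (0.783 as limma adjusted p), and Paxbp1, the nearest tested gene beyond Olig2, with 0.02 (0.937). The difference Olig2 minus Olig1, taken within each array, was lower on ethanol arrays by 0.16 on average (-0.89 ± 0.15, n = 2, against -0.73 ± 0.09, n = 4). An exact two-sided permutation test over the 15 ways to choose 2 of 6 arrays gave p = 0.267, where the smallest possible is 0.0667, so that it could not pass the threshold. Adjusted over the 3 pairs of genes compared in this way, the exact test gave p = 0.6.

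**Figure D1:**
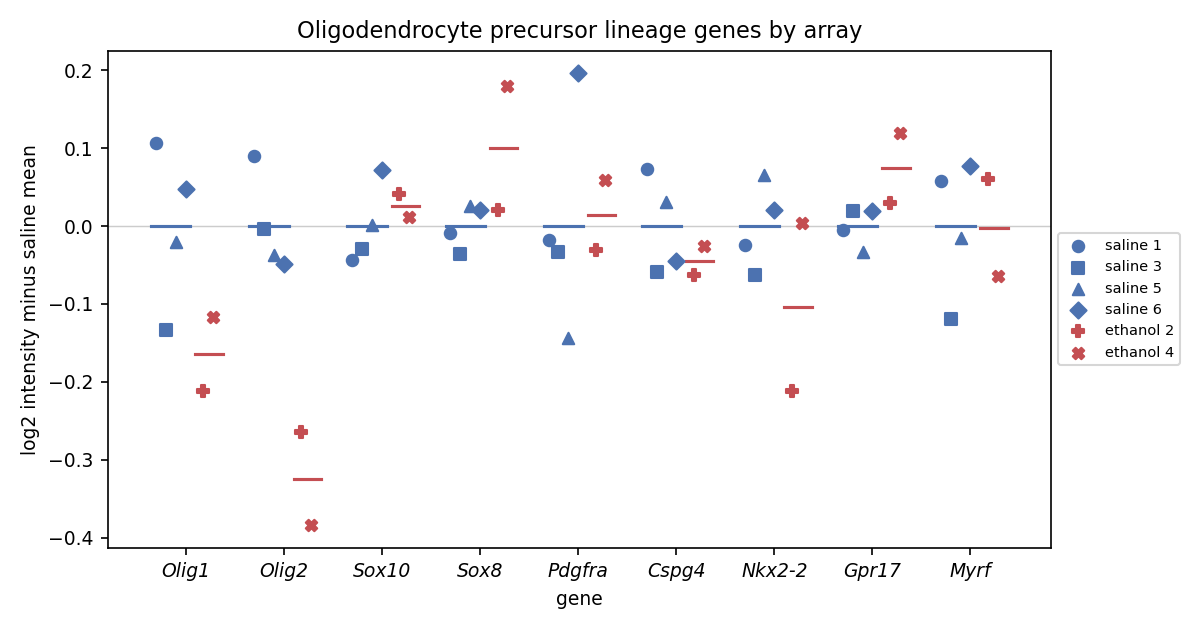
Log2 intensity of each lineage gene on each array, minus the mean of that gene's 4 saline arrays. Symbols are arrays, blue for saline and red for ethanol, and short lines are group means. Both ethanol arrays of Olig2 lie below all saline arrays, those of Gpr17 lie just above them, and the groups of the other 7 genes overlap.

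The other transcription factor genes showed no difference of the size estimated for Olig2. Sox10, which maintains the lineage from precursor to myelinating cell, was at 8.54, 8.56, 8.59 and 8.66 on saline arrays 1, 3, 5 and 6 and at 8.63 and 8.60 on the ethanol arrays. Both ethanol values lay inside the saline range. Its change was 0.03 ± 0.06 (SE, limma adjusted p = 0.905), and the interval ran from 92.9% to 112% of the saline level, beside 72.4% to 88.2% for Olig2. The difference between these 2 genes was not tested.

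Sox8, the SoxE relative that can stand in for Sox10 in part, was the gene of the set with the highest change. It was at 9.31, 9.29, 9.35 and 9.34 on saline arrays 1, 3, 5 and 6, and at 9.34 and 9.50 on ethanol arrays 2 and 4. Only array 4 stood above the saline arrays, while array 2 lay among them. The estimate was 0.10 ± 0.06 (SE, limma adjusted p = 0.559), and it was 0.02 without ethanol array 4. Sox10 minus Sox8, within each array, differed by -0.07 between ethanol and saline arrays (exact permutation p = 0.4, adjusted 0.6), and this difference was 0.02 without ethanol array 4.

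Nkx2-2 was the gene on which the ethanol arrays disagreed most. It was at 7.58, 7.54, 7.67 and 7.62 on saline arrays 1, 3, 5 and 6, at 7.39 on ethanol array 2 and at 7.61 on ethanol array 4. Array 2 was below every saline array and array 4 was in the middle of them. Its change was -0.10 ± 0.07 (SE, limma adjusted p = 0.591), and without ethanol array 2 it was 0.0045. The ethanol SD of 0.15 was the widest of the 9 genes, and the saline SD was 0.06.

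The surface markers of the precursor itself showed values near 0. Pdgfra, which binds the main mitogen of these cells, was at 10.28, 10.27, 10.16 and 10.50 on saline arrays 1, 3, 5 and 6 and at 10.27 and 10.36 on ethanol arrays 2 and 4. The saline arrays spread over 0.34, the widest saline range of the set, and held both ethanol values. The estimated change was 0.01 ± 0.08 (SE, limma adjusted p = 0.966), with an interval of 88.9% to 115% of the saline level. Cspg4, which encodes NG2, was at 8.19, 8.06, 8.15 and 8.08 on saline arrays 1, 3, 5 and 6 and at 8.06 and 8.10 on the ethanol arrays. Ethanol array 2 lay just under the lowest saline array and array 4 inside the saline range. The estimate was -0.04 ± 0.06 (SE, limma adjusted p = 0.822), with an interval of 88.2% to 107%. An interval of this width leaves room for a modest difference either way, so these values do not show that precursor markers were equal in both groups.

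Both genes of the step out of the precursor state were measured as well. Gpr17 was at 9.62, 9.64, 9.59 and 9.64 on saline arrays 1, 3, 5 and 6, the narrowest saline range of the set at 0.05, and at 9.65 and 9.74 on ethanol arrays 2 and 4. The groups did not overlap, but array 2 cleared the highest saline array by little, and 22.6% of all tested genes showed such a separation. The log2 change was 0.07 ± 0.06 (SE, limma adjusted p = 0.646), with an interval of 96.3% to 115%. Myrf was at 7.39, 7.21, 7.32 and 7.41 on the saline arrays and at 7.39 and 7.27 on the ethanol arrays, which lay inside the saline range. Its log2 change was -0.0023 ± 0.07 (SE, limma adjusted p = 0.994), and its sign turned in 5 of 14 alternatives. Myrf minus Pdgfra, which sets a gene of differentiating cells against one of precursors within each array, differed by -0.016 between the groups (exact permutation p = 0.667, adjusted 0.667).

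**Figure D2:**
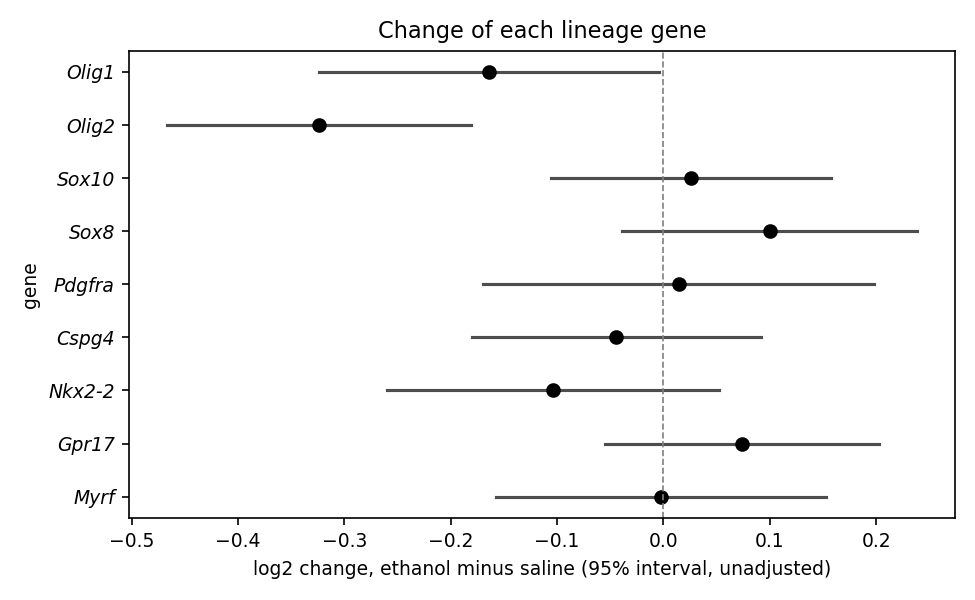
Log2 change of each lineage gene, ethanol minus saline, from the limma fit over 2 ethanol and 4 saline arrays. Points are estimates and lines their 95% intervals, not adjusted for the number of genes. The intervals of Olig2 and, barely, Olig1 lie below 0, and those of the other 7 genes cross it.

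The genes also differed in how they varied from array to array. The range over all 6 arrays was 0.47 for Olig2, of which the saline arrays account for 0.14. For Pdgfra, Sox10 and Myrf the whole range over 6 arrays was that of the saline arrays (0.34, 0.12 and 0.20). Likeness of profile was measured as the root mean square difference of mean-centred log2 values over the 6 arrays. By it, Gpr17 and Sox8 were nearest to each other (0.04), and Olig1 was the nearest of the set to Olig2 (0.12).

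Outside the set, the 5 tested genes nearest to Olig2 in profile were Urb2, Ifitm3, Chordc1, Utp18 and Heatr1, at 0.03 to 0.04, where the median of all other genes was 0.17. Urb2, Utp18 and Heatr1 encode nucleolar factors of ribosome production, Ifitm3 an interferon-induced membrane protein and Chordc1 a partner of the chaperone HSP90. Their log2 changes were -0.34, -0.27, -0.29, -0.32 and -0.36 in the order first given, with limma adjusted p of 0.0630 to 0.140, so none of them passed. None is a known marker of oligodendrocytes, and the measure takes in any gene that is lower on both ethanol arrays. The nearest to Pdgfra were Pou3f1, Vwc2, Ercc8, Zfp958 and Mfsd8, at 0.02 to 0.04 (median of all other genes 0.13). Their log2 changes lay between -0.0071 and 0.04. Pou3f1 encodes a POU factor, also known as Oct6, of myelinating cells and neurons, and a link to Pdgfra was not tested. The nearest to Myrf were Cct5, Iffo2, Rnd1, Sp1 and Tgds, at 0.01 to 0.02 (median 0.09). Their log2 changes lay between -0.02 and 0.02. For Pdgfra and Myrf the whole range was that of the saline arrays, so these matches do not mark a response to ethanol.

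The rest of the lineage was read from 6 gene lists, which held 121 genes, 106 of them tested. None of the 106 passed in limma. The unadjusted p was under 0.05 for 15 of them, 3 higher and 12 lower. That is 14.2%, beside 12.3% of all tested genes. The median change over the 106 was -0.0021.

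Other transcription regulators of the lineage (27 tested of 30) had a median change of 0.006. The unadjusted p was under 0.05 for 2 higher and 2 lower genes, or 14.8% beside 12.3% of all tested genes. Myt1, a zinc finger factor of neurons and precursors, was at 7.52, 7.54, 7.71 and 7.68 on saline arrays 1, 3, 5 and 6 and at 7.90 and 7.77 on ethanol arrays 2 and 4, a change of 0.23 ± 0.07 (SE, limma adjusted p = 0.249). Id3, an inhibitor of basic helix-loop-helix factors that binds their E-protein partners, had 0.23 ± 0.08 (0.266). Nkx6-2, a homeodomain factor of oligodendrocytes, had -0.23 ± 0.08 (0.272), and Sox9, a SoxE factor of glial precursors and astrocytes, -0.13 ± 0.06 (0.362). The saline mean of Nkx6-2 was 6.40, and its ethanol mean of 6.17 was below the background guide of 6.21. For each of these 4 genes, which were picked for their small p, the ethanol arrays lay outside the saline arrays, and none passed. Over the whole list such a separation was seen in 3 higher and 3 lower genes, or 22.2%, beside 22.6% of all tested genes. Olig3, the third gene of the Olig family, and Nkx6-1 were too dim to be tested.

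Among PDGF ligands and the second receptor (5 tested of 5, median change -0.05), Pdgfa, which encodes the main ligand of PDGFRα, was at 9.96, 9.90, 9.93 and 9.96 on saline arrays 1, 3, 5 and 6 and at 9.82 and 9.74 on ethanol arrays 2 and 4. Pdgfc, another ligand of that receptor, was at 8.65, 8.60, 8.69 and 8.68 on the saline arrays and at 8.48 and 8.36 on the ethanol arrays. In both genes the groups did not overlap, and these were 2 of the 5, or 40%, beside 22.6% of all tested genes. Their log2 changes were -0.16 ± 0.06 (SE, limma adjusted p = 0.296) and -0.23 ± 0.06 (0.173), or 89.5% and 85.1% of the saline level. Pdgfrb, the receptor of pericytes, had -0.05 ± 0.07 (0.790) and Pdgfd 0.0084 ± 0.08 (0.979), near background. None of the list passed.

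Patterning and differentiation signals (22 tested of 24) had a median change of -0.01, and the unadjusted p was under 0.05 for 0 higher and 5 lower genes, beside 3.85% higher and 8.44% lower among all tested genes. Bone morphogenetic proteins hold precursors back from the oligodendrocyte fate. Bmp2 was at 8.43, 8.54, 8.49 and 8.39 on saline arrays 1, 3, 5 and 6 and at 8.22 and 8.06 on ethanol arrays 2 and 4, which gave -0.32 ± 0.07 (SE, limma adjusted p = 0.0907), or 80.1% of the saline level. Bmp4 was at 8.60, 8.62, 8.48 and 8.65 on the saline arrays and at 8.34 and 8.38 on the ethanol arrays, a change of -0.23 ± 0.06 (0.193). For both genes every ethanol array lay below every saline array. Bmp7 had -0.17 ± 0.06 (0.294), and Jag1, a Notch ligand that keeps precursors immature, -0.18 ± 0.07 (0.303). Over the whole list the ethanol arrays lay below the saline arrays for 5 genes and above for 3, or 36.4%, beside 22.6% of all tested genes. These ligands are made by several brain cell types, and the array does not tell which cells the RNA came from.

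**Figure D3:**
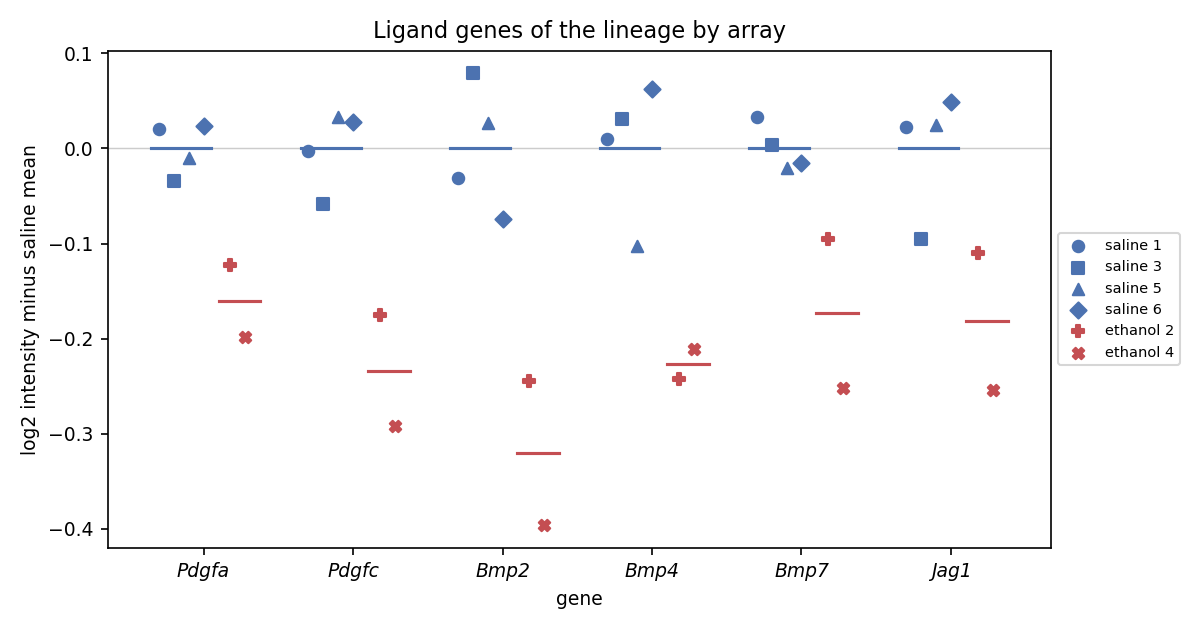
Log2 intensity of 6 ligand genes on each array, minus the mean of the gene's 4 saline arrays. Symbols are arrays, blue for saline and red for ethanol, and short lines are group means. The genes were picked for their small unadjusted p. In all 6, both ethanol arrays lie below the 4 saline arrays, and none passed the adjusted threshold. A small p favours such a separation, so its presence in all 6 largely follows from the pick. It does not show that ligand genes fell together. The shares for the whole lists and for all tested genes are given in the text.

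Other markers of the precursor were the narrowest list. Of 17 tested of 20, none passed in limma, and the unadjusted p was under 0.05 for 0, beside 12.3% of all tested genes. Their changes ran from -0.05 to 0.07, with a median of 0.04. Of them 11 were above 0 and 6 below, where 58.6% of all tested genes were below. Both ethanol arrays lay above the saline arrays for 2 genes (Sema5a and Vcan) and below for 0, or 11.8% beside 22.6% of all tested genes. Sema5a, a guidance protein gene, had 0.07 ± 0.06 (SE, limma adjusted p = 0.653), Vcan, which encodes the proteoglycan versican, 0.05 ± 0.06 (0.773), and Lhfpl3, a membrane protein gene typical of these cells, 0.05 ± 0.06 (0.787). Emid1 had 0.05 ± 0.06 (0.793). On the mean of the list per array, saline array 3 was lowest at 9.61, the other saline arrays lay between 9.70 and 9.74, and both ethanol arrays were at 9.72 and 9.71.

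Genes of committed precursors and newly formed oligodendrocytes (14 tested of 16) had a median change of -0.05. The unadjusted p was under 0.05 for 0 higher and 2 lower genes, or 14.3% beside 12.3% of all tested genes. Sirt2, a deacetylase gene of the lineage, had -0.13 ± 0.06 (SE, limma adjusted p = 0.367) and Enpp6, a choline phosphodiesterase gene switched on in newly formed cells, -0.15 ± 0.07 (0.376). Tmem108 had -0.13 ± 0.06 (0.407) and Itpr2, a calcium release channel gene, 0.15 ± 0.07 (0.438). The ethanol arrays lay below the saline arrays for 4 genes and above for 2, or 42.9% of the list beside 22.6% of all tested genes, and none passed.

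Genes of myelinating cells (21 tested of 26) had a median of -0.02. The unadjusted p was under 0.05 for 1 higher and 1 lower gene, or 9.52% beside 12.3% of all tested genes. Both ethanol arrays lay above the saline arrays for 2 genes and below for 1, or 14.3% beside 22.6% of all tested genes. Gal3st1, which makes the myelin lipid sulfatide, had -0.21 ± 0.07 (SE, limma adjusted p = 0.280) and Adamts4, a proteoglycan-cleaving protease gene of mature cells, 0.19 ± 0.08 (0.357). Anln had 0.13 ± 0.06 (0.451). Mog, a protein gene of the outer myelin surface, had -0.20 ± 0.10 (0.476), with 6.14 and 6.55 on the ethanol arrays against 6.42 to 6.69 on the saline arrays, so the groups overlapped. Of the list, 3 genes were too dim to be tested and 4 more lay near background.

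**Figure D4:**
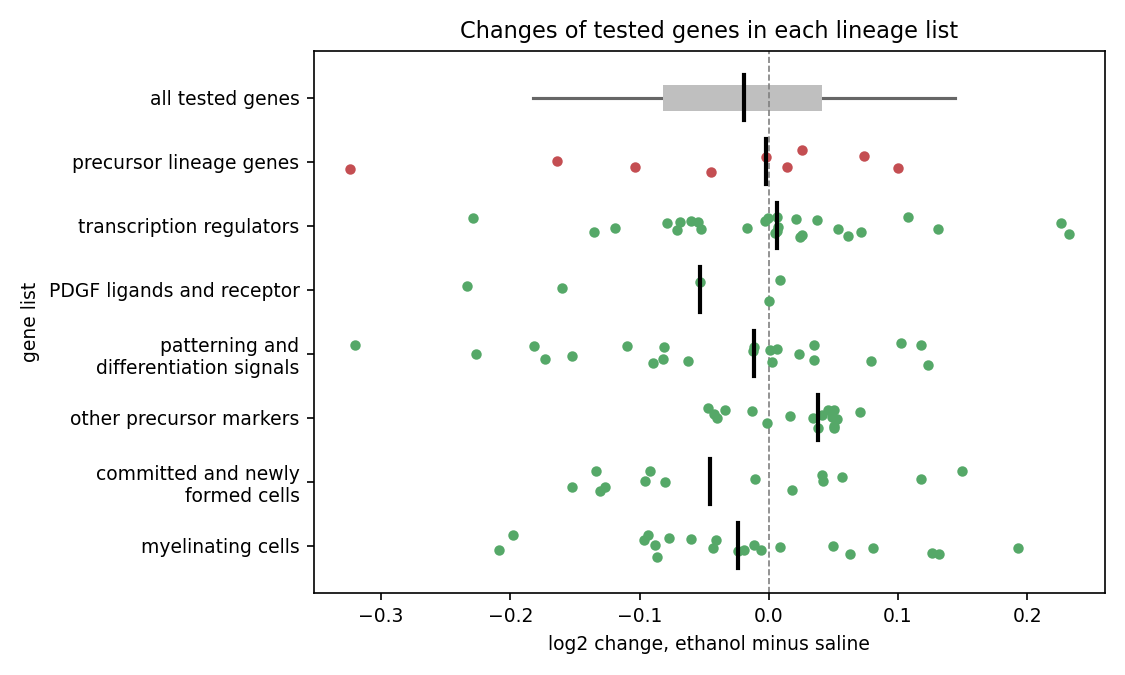
Log2 change, ethanol minus saline, of the tested genes of the set and of 6 other lists of the lineage. Points are genes (red for the 9 lineage genes) and black bars are medians. The top row gives all tested genes, with the box from the 25th to the 75th percentile and the line from the 5th to the 95th. List medians lie between -0.05 and 0.04, and Olig2 and Bmp2 lie furthest to the left.

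Some of the 9 genes are also used by other cells, so markers of those cells were read beside them. For none of the 9, Olig2 included, does the array tell which cells the RNA came from. Neuron (8 of 8 tested) and astrocyte markers (8 of 8) were well above background, with mean levels of 12.1 and 10.3 on saline arrays. Their median changes were -0.024 and -0.015. Fibroblasts of the meninges express Pdgfra. Of 8 fibroblast markers, all tested, none passed in limma and the unadjusted p was under 0.05 for 0, and their mean level was 8.58 to 8.68 on saline arrays and 8.65 to 8.77 on ethanol arrays. Pericytes express Cspg4, and their markers (8 of 8 tested, 7 below 0 where 58.6% of all tested genes were, median change -0.07) had a mean level of 8.09 to 8.15 on saline arrays and of 8.04 to 8.06 on ethanol arrays. The groups did not overlap on that mean. Of the single pericyte markers, 3 were lower and 1 higher on both ethanol arrays than on all saline arrays, or 50% beside 22.6% of all tested genes. On the same count neuron markers were at 37.5% (3 lower) and Schwann markers at 33.3%. Microglial and endothelial markers were at 16.7%, astrocyte markers at 12.5% and fibroblast markers at 0%. The part of pericyte markers in the values of Cspg4 was not tested. Schwann cells of the cranial nerves express Sox10. Of 6 Schwann markers 3 were tested, with a mean of 8.50 to 8.60 on saline arrays and 8.47 to 8.51 on ethanol arrays. Microglial (6 of 8 tested) and endothelial markers (6 of 6) had median changes of -0.02 and -0.03.

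In each of these cell type lists the gene with the smallest p was named. In log2 change ± SE and limma adjusted p, these were Snap25 for neurons (-0.19 ± 0.06, 0.257), S100b for astrocytes (-0.18 ± 0.06, 0.267), Higd1b, near background, for pericytes (-0.17 ± 0.06, 0.272), Fmod for fibroblasts (0.19 ± 0.10, 0.444), P2ry12 for microglia (-0.12 ± 0.07, 0.502), Slco1c1 for endothelium (-0.11 ± 0.06, 0.509) and Pmp22 for Schwann cells (-0.11 ± 0.06, 0.535). S100b is also expressed in oligodendrocytes. None of the 47 tested markers passed in limma, and the unadjusted p was under 0.05 for 3, or 6.38%, beside 12.3% of all tested genes.

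**Figure D5:**
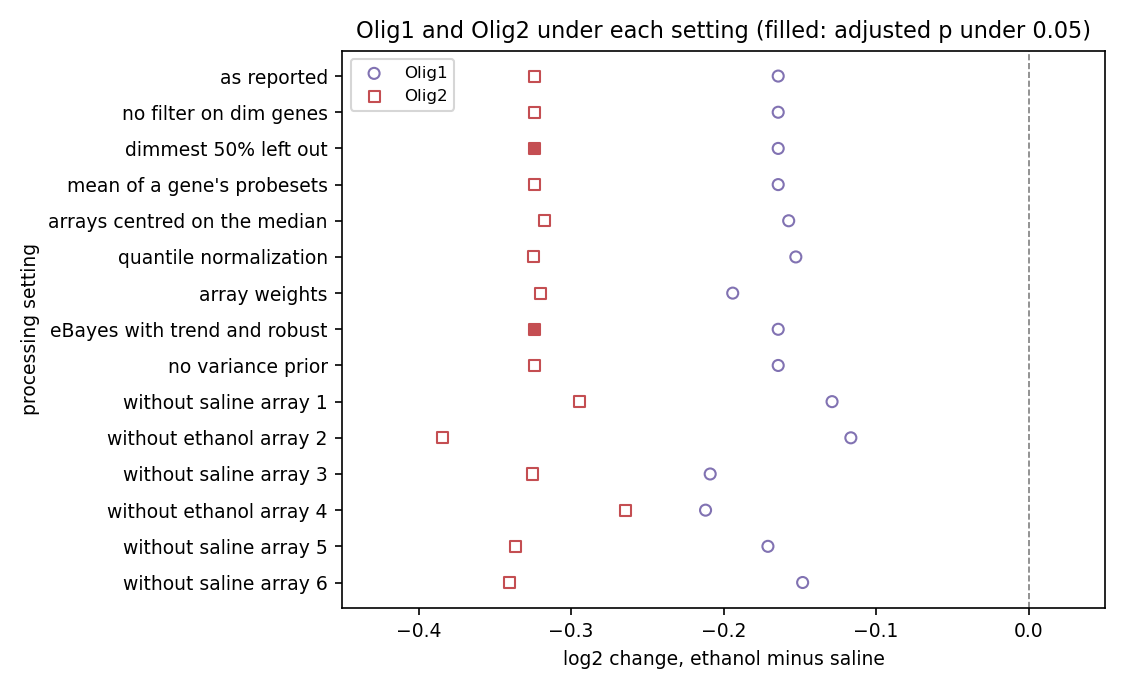
Log2 change of Olig1 (circles) and Olig2 (squares), ethanol minus saline, as reported and under 14 other settings. Filled symbols have a limma adjusted p under 0.05. Olig2 stays between -0.38 and -0.26 and passes in 2 settings, and Olig1 stays between -0.21 and -0.12 and passes in none.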

How the data were processed

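The deposited table holds a single value for every probeset and array, read here as log2 intensity because values run from 4.10 to 14.9. The submitters' processing notes name Partek 6.6. For the log base, background correction and normalization the method is not given in the sources used here, and another normalization could shift small one-way changes. Of 35556 probesets, 21789 carried 1 gene symbol and gave 19938 genes, by the brightest probeset. The dimmest 25% were left out, and 14953 genes were fitted with limma 3.58.1 in R 4.3.3 (treatment as the only term, all 6 arrays, two-sided, Benjamini-Hochberg over all tested genes). Symbols were updated through RefSeq (GRCm38.p6); no coordinates are printed, since the array's build is not named. P-values reflect the spread between pools of different animals. The members and lists were chosen with earlier results of these data known. The genes named are the 9 members, up to 4 genes of smallest p per lineage list, 1 per cell type list, and 5 nearest profiles of Olig2, Pdgfra and Myrf. The fit was tested on simulated data. Alternatives covered the filter, probesets, scaling, variance model and each array left out.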

Additional observations from a re-analysis of the deposited data

How the results depend on the processing

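In limma, 12 genes passed as reported, 52 with the dimmest 50% of genes left out, 56 with array weights, 48 with a trended and robust variance prior and 4 to 16 with 1 array left out (4 without ethanol array 4). With no variance prior 0 passed, and 1535 had an unadjusted p under 0.05. Of the 9 lineage genes, 1 (Olig2) passed with the dimmest 50% left out and 1 (Olig2) with the trended and robust prior, and none in the other 12 alternatives. No gene of the 6 other lineage lists passed under any of the 14 alternatives. The median change of the 9 genes was -0.032 with array weights and -0.042 to 0.023 with 1 array left out. Signs turned for Pdgfra (-0.0077 with array weights, -0.034 to 0.079 with 1 array left out), for Myrf (0.0046 with centred arrays, 0.015 after quantile normalization, -0.065 to 0.060 with 1 array left out) and for Nkx2-2 (-0.21 to 0.0045 with 1 array left out). The difference Sox10 minus Sox8 ran from -0.17 to 0.021 with 1 array left out, and Myrf minus Pdgfra from -0.12 to 0.091. Leaving out an ethanol array leaves 1, which is assumed to vary like the saline arrays. No lineage gene had a further probeset, so the swap of each for another of its own probesets was not run, while the mean of a gene's probesets was. No paired analysis was possible because the groups share no replicate number. The number of arrays, 2 and 4, limits what could be detected.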
